A study of Mus musculus with 8 samples.

Results

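The respiratory chain genes measured here were the subunits, assembly factors and close relatives of complexes I to V of oxidative phosphorylation, 109 of the 27998 features counted. They were taken by the start of the gene symbol: Nduf for complex I, Sdha to Sdhd for complex II (succinate dehydrogenase), Uqcr for complex III, Cox4 to Cox8 for complex IV (cytochrome c oxidase), Atp5 for complex V (the ATP synthase), and mt- for the genes of the mitochondrial DNA (mtDNA). Of these, 96 are encoded in the nucleus and 13 in the mtDNA. By complex, they comprise 43 nuclear and 7 mtDNA genes for complex I, 8 nuclear genes for complex II, 8 and 1 for complex III, 20 and 3 for complex IV, and 17 and 2 for complex V, including 11 assembly factors of complexes I and II, 2 ATP synthase factors and 2 relatives of complex IV subunits. The symbol rule also takes Ndufa4, which is now counted as a subunit of complex IV and is treated as one below, and it misses the complex III subunit Cyc1.

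The cells came from WT mice aged 12 to 14 weeks that had received IFNα, 50000 IU per 20 g of body weight under the skin, 3, 24 or 72 h before collection, or 100 μl of PBS as control, with 4 mice in each of the 4 groups. From each mouse, Lin- c-Kit+ (LK) bone marrow progenitors with added LK CD150+ CD48- CD34- hematopoietic stem cells (HSCs) were labeled with a hashtag antibody, and the 4 mice of a time point were run as a single droplet library. Unique molecular identifiers (UMIs), which count captured RNA molecules at the 3′ end of transcripts, were summed per mouse over the kept cells. The time point and its library cannot be told apart in this design, and the p-values below measure the spread between the mice within libraries.

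Nuclear and mitochondrial genes have to be expressed together to build the respiratory chain. Complexes I, III and IV pass electrons from NADH to oxygen and pump protons, complex II feeds in electrons from succinate without pumping, and the ATP synthase uses the proton gradient to make ATP. Complexes I, III, IV and V are built from subunits of both genomes, with the catalytic core of complex IV encoded in the mtDNA, whereas complex II is encoded in the nucleus alone, as are the many small accessory subunits. Quiescent HSCs are known for a metabolism that leans on glycolysis, and their activation is accompanied by greater use of mitochondrial respiration.

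The kept cells numbered 10046, from 1661 at 3 h to 3462 at 24 h, and the UMIs per mouse ranged from 1102706 to 26446327. The 3 h library was the shallowest, with a median of 12017 UMIs per cell against 18964.5 in control, 18953.5 at 24 h and 14763 at 72 h. Control mouse 4 contributed only 58 cells. The mtDNA genes made up a median of 1.59% to 1.74% of a cell's UMIs across the libraries, below the limit of 5% used for keeping cells. Cells of 2 libraries shared a barcode in 3 instances, and no count below moved by more than 1.5 times when these cells were left out. Summed markers of mature B cells took 28.3 to 60.3 counts per 1000000 UMIs (CPM), with Ms4a1 at 0 in the 3 treated libraries. Those of T and NK cells took 289.8 to 619.7, with Cd3e at 0 in the same libraries. Neutrophil markers took 3.67 to 7.66 and macrophage markers 0.907 to 12.7. Plasma cell markers took 0.815 to 155, highest in a control mouse, and at most 7.35 in treated mice. All listed markers of these mature cells found in the files were detected in control, and the part of such cells in the results was not tested.

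Of the members, 92 nuclear and all 13 mtDNA genes passed the filter on low counts. The exceptions were the tissue-restricted complex IV isoforms Cox7b2, Cox8b and Cox8c, none with a UMI, and the relative Ndufa4l2, with 1 UMI in all 16 mice. Isoforms that are known from muscle, lung or testis were scarce beside their common counterparts in control, by mean CPM, which is not divided by transcript length because UMIs mark the 3′ end. Cox4i1 stood at 1125 CPM and its oxygen-regulated isoform Cox4i2 at 3.72, Cox6a1 at 282 and the muscle isoform Cox6a2 at 5.16, and Cox7a2 at 401 and the muscle isoform Cox7a1 at 1.11. The testis isoform Cox6b2 was well detected, at 87.6 CPM against 509 for Cox6b1. Of the genes for the membrane ring of the ATP synthase, Atp5g2 had 1126 CPM, Atp5g1 835 and Atp5g3 388. Divided by transcript length in kilobases, Atp5g2 stayed highest (1922 CPM per kilobase), but Atp5g3 (540.2) stood above Atp5g1 (312), and the order within the other pairs was the same.

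At 3 h after IFNα the nuclear members split into rises and falls, which also moved with transcript length, as described below. Of the 92 tested, 37 were higher and 30 lower than in control at an adjusted p under 0.05 (edgeR's quasi-likelihood test over 12042 genes), where 19.7% of all genes were called higher and 19.2% lower. The median log2 fold change was 0.03 over the nuclear members and -0.03 over all genes. The mtDNA members were called higher in 10 of 13 cases and lower in 0, with a median of 0.23. The limit of 5% on mtDNA UMIs in kept cells acts on the same genes, and without it the mtDNA members called higher were 7, 6 and 9 at 3, 24 and 72 h in place of 10, 9 and 11. The calls lost were those of mt-Co2 at each time, mt-Nd4 at 3 and 72 h, mt-Co1 at 3 h, and mt-Cytb and mt-Nd1 at 24 h, with log2 fold changes of 0.026 to 0.14 without the limit. The largest changes were rises: 4 nuclear and 4 mtDNA members passed an absolute log2 fold change of 1, all upward, where 6.9% of all genes passed it in either direction. Among the 43 nuclear genes of complex I, 17 were called higher and 14 lower, and the count for the subunits of complex IV was 10 higher and 2 lower of 15 tested. In sums over the compartment, fewer cells of a type and less RNA per cell cannot be told apart.

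At 24 h, 24 nuclear members were called higher and 26 lower (14.5% and 13.8% of all genes), and 9 mtDNA members were called higher and 0 lower. None of the members passed a log2 fold change of 1, which 2.22% of all genes did. At 72 h the nuclear members leaned to lower values, with 21 called higher and 42 lower (18.9% and 18.5% of all genes) and a median of -0.07, while 11 mtDNA members were called higher and 0 lower. The mtDNA members mt-Nd3, mt-Nd4l and mt-Nd6 passed a log2 fold change of 1 at 72 h, where 2.86% of all genes did. The 3 comparisons share their control mice, and the values of each stand side by side in the plot of subunits by complex.

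The split at 3 h depended on the scaling. The TMM factors were 0.925 to 0.936 at 3 h and 1.01 to 1.04 in the other mice. With scaling to library size alone, the median of all genes at 3 h moved by -0.148 on the log2 scale, from -0.03 to -0.18. The counts at 3 h then became 30 higher and 45 lower for nuclear members, and 5 higher and 3 lower for mtDNA members. At 24 and 72 h the medians of all genes moved by -0.014 and -0.012 only, and the nuclear counts were 24 higher with 29 lower and 20 higher with 44 lower.

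**Figure D1:**
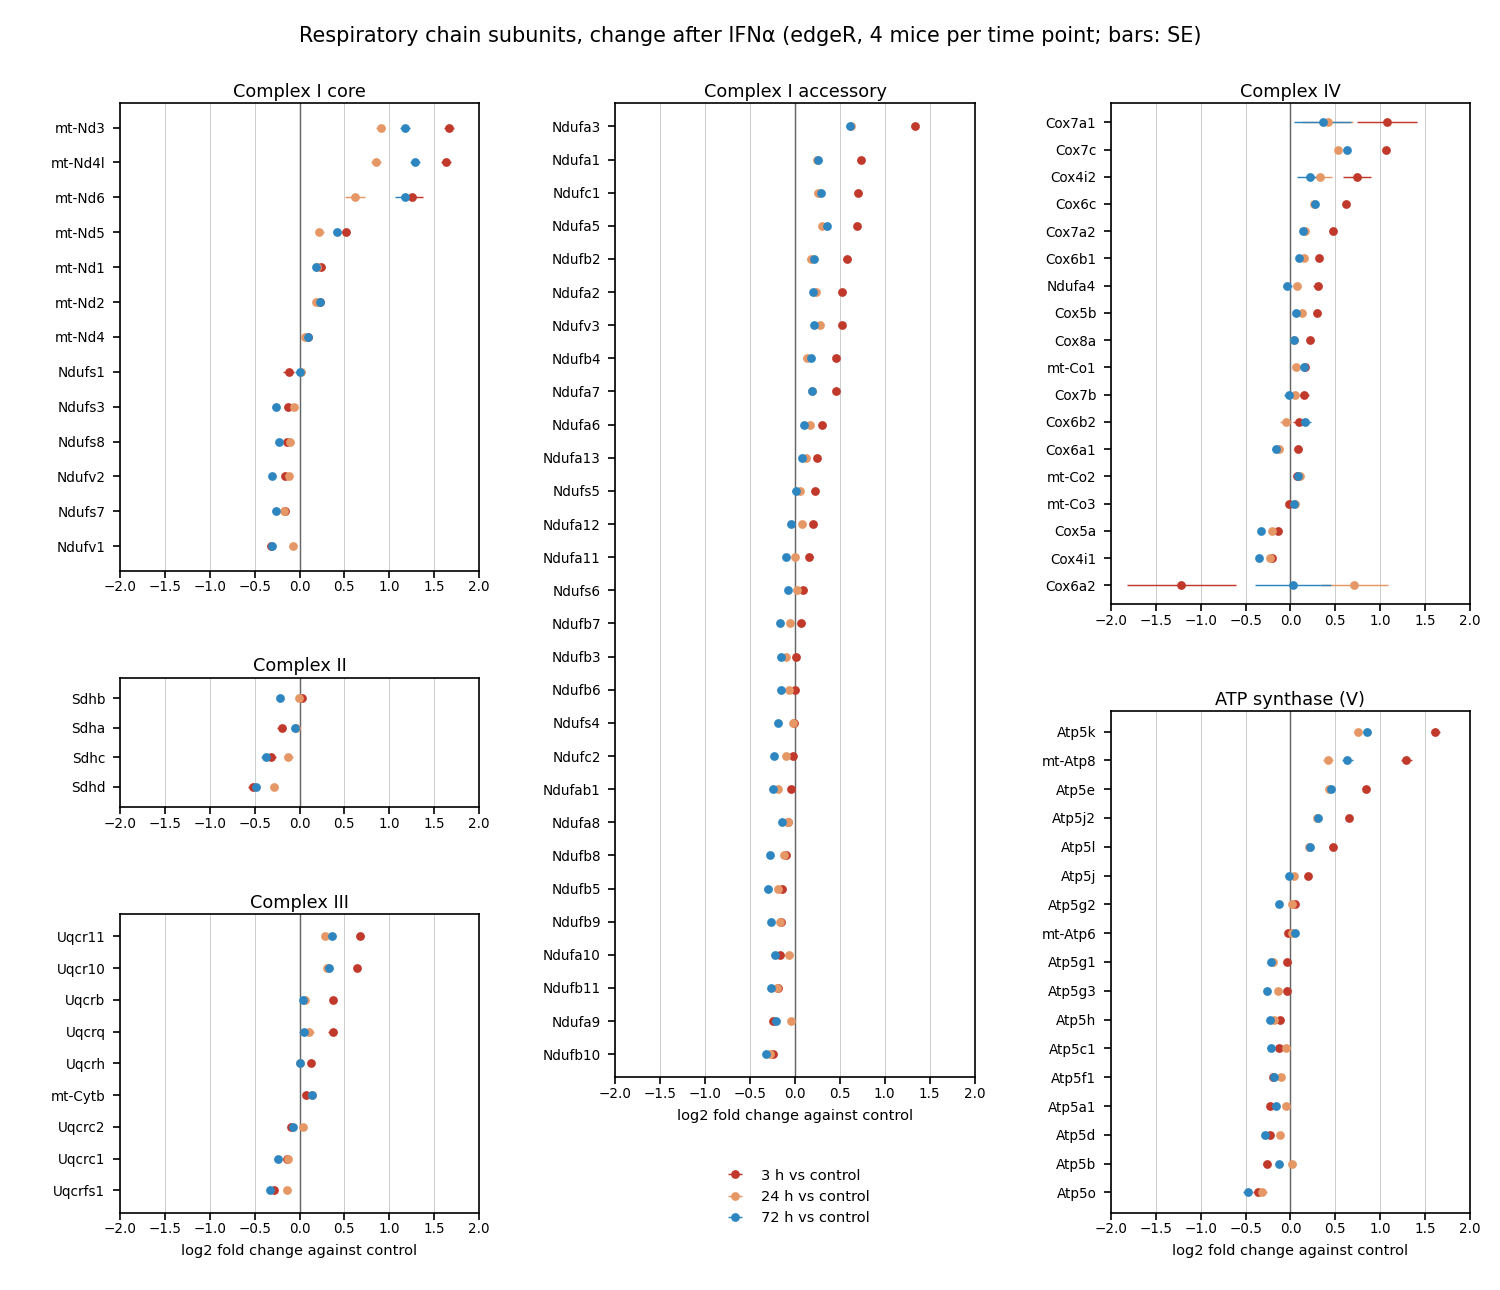
Log2 fold change against control at 3, 24 and 72 h (horizontal axis, points in 3 colors with bars of the SE from edgeR) for the tested subunits reported here (vertical axis, 1 gene a line, mtDNA genes starting mt-), with a panel for complex I core, complex I accessory subunits and complexes II to V. Every panel except that of complex II holds subunits well above 0 at 3 h, up to 1.66 for mt-Nd3, beside subunits below 0.

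Promoters were read for the members that the contrast between rising and falling subunits turns on, from RefSeq on GRCm38.p6, as the 250 bases before and 50 after the start of the gene. Positions in them are counted from 1 at the 5′ end. They are Atp5k, the nuclear member with the largest rise, Uqcr11 and Cox7c, which led the rises in complexes III and IV among well-expressed genes, and Sdhd and Ndufv1, which led the falls in complex II and the complex I core. Capitals mark matches to the short cores of known regulatory motifs. Atp5k holds an NRF1 core at 201 (with its reverse complement at 202, since the motif nearly mirrors itself) and an ETS core on the opposite strand at 263. Uqcr11 holds an ETS core at 185 and, on the opposite strand, an NRF1 core at 246. Sdhd holds an ETS core on the opposite strand at 205. Cox7c and Ndufv1 each hold a core of the interferon-stimulated response element (ISRE), at 254 on the opposite strand and at 103 on the printed strand.
Atp5k, chr5:108434350-108434649, minus strand: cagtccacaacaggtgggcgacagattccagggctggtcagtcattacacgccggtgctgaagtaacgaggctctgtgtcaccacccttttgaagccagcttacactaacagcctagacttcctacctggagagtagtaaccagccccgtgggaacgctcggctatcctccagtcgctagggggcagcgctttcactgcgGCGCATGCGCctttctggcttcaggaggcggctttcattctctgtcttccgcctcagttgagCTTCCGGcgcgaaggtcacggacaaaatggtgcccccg
Uqcr11, chr10:80406772-80407071, minus strand: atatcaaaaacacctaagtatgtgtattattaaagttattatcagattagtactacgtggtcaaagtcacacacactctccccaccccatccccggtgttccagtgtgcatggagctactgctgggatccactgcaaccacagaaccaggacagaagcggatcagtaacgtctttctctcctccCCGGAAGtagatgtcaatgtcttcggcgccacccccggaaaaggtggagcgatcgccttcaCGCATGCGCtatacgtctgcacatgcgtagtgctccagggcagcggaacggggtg
Cox7c, chr13:86046746-86047045, minus strand: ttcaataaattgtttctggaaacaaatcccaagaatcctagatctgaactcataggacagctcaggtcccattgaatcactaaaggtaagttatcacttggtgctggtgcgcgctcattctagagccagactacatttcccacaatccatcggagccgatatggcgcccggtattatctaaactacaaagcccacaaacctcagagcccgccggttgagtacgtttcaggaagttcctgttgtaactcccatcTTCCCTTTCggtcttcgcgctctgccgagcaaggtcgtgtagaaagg
Sdhd, chr9:50603800-50604099, minus strand: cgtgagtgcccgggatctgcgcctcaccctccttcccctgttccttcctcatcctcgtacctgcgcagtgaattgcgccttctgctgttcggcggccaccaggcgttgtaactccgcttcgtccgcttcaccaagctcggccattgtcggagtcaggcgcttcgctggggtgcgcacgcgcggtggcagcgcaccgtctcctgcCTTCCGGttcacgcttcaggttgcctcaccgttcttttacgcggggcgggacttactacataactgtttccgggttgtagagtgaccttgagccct
Ndufv1, chr19:4012706-4013005, minus strand: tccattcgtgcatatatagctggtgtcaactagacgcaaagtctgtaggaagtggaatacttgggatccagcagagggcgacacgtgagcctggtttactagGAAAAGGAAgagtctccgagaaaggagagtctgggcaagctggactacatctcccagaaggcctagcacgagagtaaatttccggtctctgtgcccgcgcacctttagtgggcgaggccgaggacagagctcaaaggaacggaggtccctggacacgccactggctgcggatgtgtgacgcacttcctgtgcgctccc

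The table of promoters held 77 of the 96 nuclear members and 27025 promoters in all, and both strands were searched. The NRF1 core, searched as GCGCATGCG, was found in 10 of the 77 members (13%) and in 1.81% of all promoters. The ETS core CCGGAAG, bound by GABP, was found in 19 members (24.7%) and 9.12% of all promoters, and the YY1 core AAGATGGCG in 6 (7.79%) and 1.49%. NRF1, GABP and YY1 are known activators of nuclear genes for mitochondrial proteins. The SP1 core GGGCGG was present in 36 members (46.8%) and 35.9% of all promoters. The ISRE core GAAANNGAA, where N is any base, was present in 7 members (9.09%) and 8.57% of all promoters. Of the 31 members with a promoter that were called higher at 3 h, 5 held the NRF1 core, 7 the ETS core and 1 the ISRE core. Of the 23 called lower, 1 held the NRF1 core, 4 the ETS core and 4 the ISRE core, and of the 21 tested but not called, 4, 8 and 2 did. A match is a run of letters and not a measured binding site.

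The nuclear core subunits of complex I, which carry the flavin and the iron-sulfur clusters that take electrons from NADH, were called lower in 6 of 7 cases at 3 h, in 2 at 24 h and in 6 at 72 h, and higher in 0 at each time. Ndufv1, which holds the flavin and binds NADH (chr19:4007384-4012806 on mm10 in the GENCODE vM21 annotation, as for the other positions), had TMM-scaled CPM of 112, 114, 115 and 124 in the 4 control mice, 92.1, 85.7, 96.5 and 93.5 at 3 h, 105, 108, 107 and 115 at 24 h and 88.4, 92.2, 95.9 and 95.2 at 72 h. The mice at 3 and 72 h all lay below the control mice, whereas those at 24 h overlapped them. Its log2 fold change was -0.32 (SE 0.0475, adjusted p = 1.24e-05) at 3 h and -0.31 (SE 0.0447, adjusted p = 1.58e-05) at 72 h, and -0.08 (SE 0.0433, adjusted p = 0.196) at 24 h. At 3 h Ndufs7, Ndufv2, Ndufs8 and Ndufs3, all core subunits, fell by 0.13 to 0.16. Ndufs1, the largest of the iron-sulfur subunits, did not pass at any time, with values of -0.12, 0.02 and 0.01. Summed, the core genes took 0.123 ± 0.001% of all UMIs in control (SD, n = 4 mice) and 0.0983%, 0.114% and 0.103% at 3, 24 and 72 h.

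The accessory subunits of complex I, which surround the core and stabilize it, went both ways, with 14 called higher and 7 lower of 29 at 3 h, 11 and 8 at 24 h, and 10 and 15 at 72 h. Ndufa3, a small membrane subunit (chr7:3617373-3620327), led the rises. Its CPM was 185, 171, 173 and 186 in control, 434, 434, 452 and 467 at 3 h, 286, 271, 263 and 272 at 24 h and 272, 273, 265 and 274 at 72 h, with no overlap between control and any treated group. The log2 fold change was 1.33 (SE 0.0383, adjusted p = 3.73e-18) at 3 h, 0.62 at 24 h and 0.61 at 72 h. Ndufa1, Ndufc1 and Ndufa5 rose by 0.73, 0.70 and 0.69 at 3 h and stood at 0.25, 0.25 and 0.30 at 24 h, also passing. Lower rises at 3 h were those of Ndufb2 (0.58), Ndufa2 and Ndufv3 (both 0.52), Ndufb4 and Ndufa7 (both 0.46), Ndufa6 (0.30), Ndufa13 (0.25), Ndufs5 (0.22), Ndufa12 (0.20) and Ndufa11 (0.16). Ndufb10, a subunit of the distal membrane arm, led the falls, with CPM of 306, 295, 296 and 305 in control, 245, 242, 264 and 261 at 3 h, 248, 241, 249 and 252 at 24 h and 241, 236, 241 and 241 at 72 h. Every treated mouse lay below every control mouse, and the log2 fold change was -0.24 (SE 0.0344, adjusted p = 5.65e-06) at 3 h, -0.28 at 24 h and -0.32 at 72 h. Ndufa9, Ndufb11, Ndufa10, Ndufb9, Ndufb5 and Ndufb8 also fell at 3 h, by 0.10 to 0.24. The other 8 did not pass at 3 h (Ndufs6, Ndufb7, Ndufb3, Ndufb6, Ndufs4, Ndufc2, Ndufab1 and Ndufa8), and 7 of them were called lower at 72 h, by 0.14 to 0.25, with Ndufs6 as the exception at -0.08.

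Of the 7 assembly factors of complex I, Ndufaf2, Ndufaf4 and Ndufaf6 rose at 3 h by 0.68, 0.37 and 0.25, and Ndufaf3 fell by 0.17. Ndufaf4 was no longer above control at 24 h, where it was called lower at -0.15. Ndufaf1 and Ndufaf7 did not pass at any time, and Ndufaf5 was lower at 72 h (-0.35).

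In the whole compartment complex II had no member called higher against control at any time. Its 4 subunits included 3 called lower at 3 h, 1 at 24 h and 3 at 72 h. Sdhd (chr9:50596357-50603812), a membrane anchor of the complex, showed the deepest fall of any nuclear member that passed at 3 h. Its CPM was 189, 189.5, 183 and 173 in control and 128, 123, 129 and 136 at 3 h, then 148, 143, 154 and 163 at 24 h and 126, 136, 137 and 132 at 72 h. All treated mice lay below the lowest control mouse, and the log2 fold change was -0.52 (SE 0.0476, adjusted p = 6.92e-09) at 3 h, -0.28 (SE 0.0442, adjusted p = 5.25e-05) at 24 h and -0.48 (SE 0.0453, adjusted p = 3.93e-08) at 72 h. Sdhc, the other membrane anchor, fell by 0.32 at 3 h and 0.37 at 72 h, with -0.12 at 24 h. Sdha, the flavoprotein that oxidizes succinate, fell at 3 h (-0.20), whereas Sdhb, the iron-sulfur subunit, fell at 72 h only (-0.22, with 0.03 at 3 h). The assembly factors Sdhaf1 to Sdhaf4 were not called at 3 h, and Sdhaf2 and Sdhaf3 were lower at 24 h (-0.19 and -0.24), Sdhaf3 also at 72 h (-0.17). The 8 genes together took 0.0761 ± 0.00125% of UMIs in control (SD, n = 4) and 0.0608%, 0.0693% and 0.0643% at 3, 24 and 72 h.

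In complex III the small nuclear subunits rose at 3 h, and the core proteins and the Rieske protein fell. Uqcr11, the smallest subunit (chr10:80402997-80406830), had CPM of 351, 338, 344 and 369 in control, 545, 537, 568 and 577 at 3 h, 426, 389, 431 and 457 at 24 h and 438, 441, 462 and 453 at 72 h, and all treated mice lay above the control mice. Its log2 fold change was 0.68 (SE 0.0423, adjusted p = 8.52e-12) at 3 h, 0.29 at 24 h and 0.36 at 72 h. Uqcr10 followed at 0.64, 0.31 and 0.32, all called. Uqcrb, Uqcrq and the hinge protein Uqcrh were higher at 3 h alone, by 0.37, 0.37 and 0.13. Uqcrfs1, the Rieske iron-sulfur protein that hands electrons toward cytochrome c, had CPM of 256, 251, 256 and 258 in control, 214, 202, 204 and 215 at 3 h, 229, 232, 226 and 241 at 24 h and 194, 201, 209.8 and 204 at 72 h. The treated mice all lay below the control mice, and the log2 fold change was -0.29 (SE 0.0358, adjusted p = 1.01e-06) at 3 h, -0.13 at 24 h and -0.33 at 72 h. Both core proteins, Uqcrc1 and Uqcrc2, fell at 3 h by 0.14 and 0.09. At 24 h and at 72 h, 2 subunits of complex III were called higher and 2 lower.

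Among the nuclear subunits of complex IV rises outnumbered falls at 3 h, with 10 higher and 2 lower of 15, then 5 and 3 at 24 h, and 4 and 3 at 72 h. Their median at 3 h, 0.30, was -0.10 once the trend of all genes on transcript length, described below, was removed, with 7 of the 15 above 0. The median of all genes was then -0.09. Cox7c, a single-helix subunit (chr13:86044816-86046904), had CPM of 582, 539.6, 549 and 569.9 in control, 1156, 1136, 1167 and 1210.0 at 3 h, 808, 780.4, 799 and 839.6 at 24 h and 850.5, 857, 876 and 889.9 at 72 h. All treated mice lay above all control mice, with log2 fold changes of 1.06, 0.53 and 0.63. Cox6c and Cox7a2 rose by 0.62 and 0.47 at 3 h and were still called higher at 24 h (0.27 and 0.16) and 72 h (0.27 and 0.14). Cox6b1 (0.31), Ndufa4 (0.30), Cox5b (0.30), Cox8a (0.22) and Cox7b (0.16) were called at smaller sizes at 3 h. The rare isoforms Cox7a1 and Cox4i2 also passed at 3 h, Cox7a1 from 1.11 ± 0.52 to 2.0 ± 0.313 CPM and Cox4i2 from 3.72 ± 0.211 to 6.25 ± 1.40 (SD, n = 4). Cox7a1 ranged from 0.466 to 1.74 CPM in control, which overlapped the mice at 3 h, and its call was lost without control mouse 1 (0.76). The call of Cox7b was lost without control mouse 3 or without mouse 1 or 4 of the 3 h group (0.11 to 0.14), and that of Cox6b1 at 72 h without control mouse 2 or without mouse 3 or 4 of the 72 h group (0.081 to 0.090).

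Cox4i1 and Cox5a, which sit against the catalytic core and bind regulators of the enzyme, fell. Cox4i1 had CPM of 1117, 1136, 1136 and 1110.2 in control, 972, 957, 962 and 1011 at 3 h, 948, 942, 944 and 1007 at 24 h and 859, 885, 902 and 883 at 72 h, with every treated mouse below every control mouse. Its log2 fold change was -0.21 (SE 0.0279, adjusted p = 3.1e-06) at 3 h, -0.23 at 24 h and -0.35 at 72 h, and Cox5a stood at -0.14, -0.20 and -0.33, all called. Cox7a2l, a relative of the subunit gene Cox7a2, was lower at 3 h (-0.27 (SE 0.0425, adjusted p = 2.73e-05)) and at -0.01 and -0.04 later. Cox6a1 was called lower at 24 and 72 h (-0.13 and -0.16), Cox6b2 did not pass at any time, and Cox6a2 (5.16 ± 2.39 CPM in control) did not pass against control (-1.21, 0.71 and 0.03), although its fall at 3 h passed without control mouse 1 (-1.54). The call of Cox6a1 at 24 h was lost without control mouse 1 or 2 or without mouse 1, 2 or 3 of the 24 h group (-0.13 to -0.089).

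In complex V small subunits of the membrane sector rose, and most of the catalytic head and the stator stalk fell. Atp5k, subunit e of the membrane sector (chr5:108433244-108434448), had CPM of 164, 162, 158 and 177 in control, 478, 480.1, 498 and 538 at 3 h, 274, 259, 272 and 293 at 24 h and 282, 286, 304 and 307 at 72 h. Treated and control mice did not overlap at any time. The log2 fold change was 1.61 (SE 0.0475, adjusted p = 5.61e-18) at 3 h, 0.75 (SE 0.0463, adjusted p = 3.61e-11) at 24 h and 0.85 (SE 0.0467, adjusted p = 3.92e-12) at 72 h. The annotation names a pseudogene for Atp5k and for 4 other members, Atp5c1, Atp5l, Ndufab1 and Uqcrh, and how reads shared with these copies were counted is not known. Atp5e, the ε subunit at the foot of the head, was higher by 0.85, 0.42 and 0.45, and Atp5j2 by 0.65, 0.30 and 0.31. Atp5l was higher by 0.47, 0.21 and 0.21, and all of these were called. Atp5j, a subunit of the stator stalk, was called higher at 3 h alone, by 0.20.

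Atp5o, which ties the head to the stator stalk (the OSCP subunit), had CPM of 426, 425, 418 and 486 in control, 325, 314, 343 and 363 at 3 h, 339, 320.4, 352 and 382 at 24 h and 302, 323, 312 and 309.8 at 72 h. Every treated mouse lay below every control mouse, with control mouse 4 the highest, and the log2 fold change was -0.37 (SE 0.0532, adjusted p = 8.49e-06) at 3 h, -0.32 at 24 h and -0.48 at 72 h. Of the 5 genes of the head (Atp5a1, Atp5b, Atp5c1, Atp5d and Atp5e), 4 were called lower and Atp5e higher at 3 h, and likewise at 72 h. Atp5b, the catalytic β subunit, was at -0.27 (SE 0.0395, adjusted p = 1.16e-05) at 3 h, 0.02 at 24 h and -0.13 at 72 h, and the α subunit Atp5a1 at -0.23, -0.06 and -0.16. Of the stalk subunits Atp5f1 and Atp5h, the former fell by 0.19 and the latter by 0.11 at 3 h. The ring genes Atp5g1, Atp5g2 and Atp5g3 were not called at 3 h and were lower at 72 h, at -0.22, -0.13 and -0.26. The factors Atp5s and Atp5sl were called at no time against control.

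**Figure D2:**
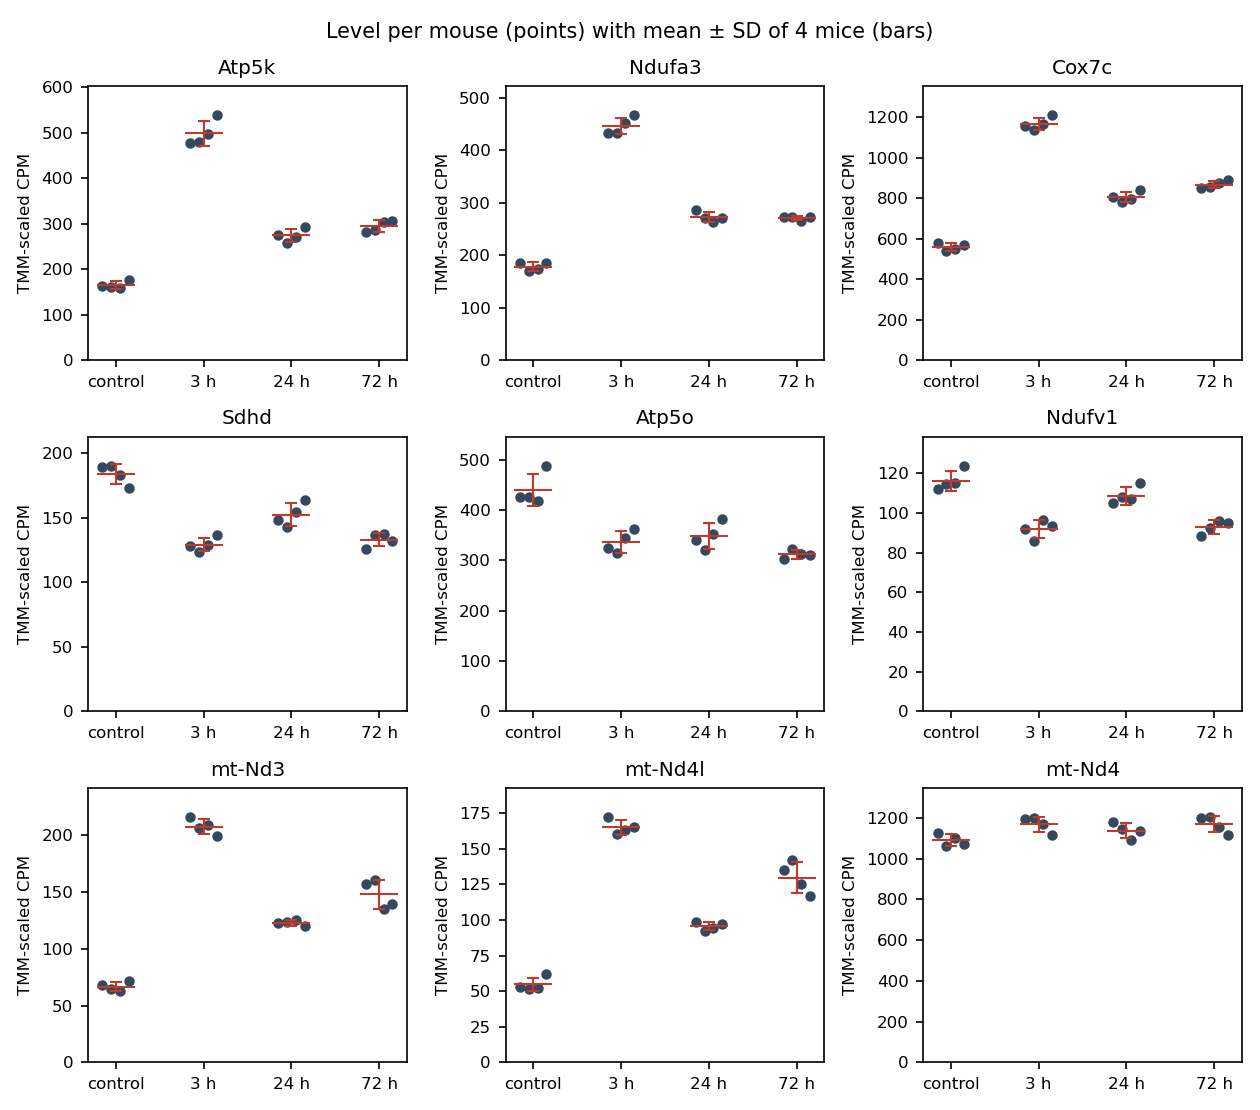
TMM-scaled CPM (vertical axis of each panel) in each of the 4 mice (points) of control, 3 h, 24 h and 72 h, with the mean and SD, for 6 nuclear and 3 mtDNA members. Atp5k, Ndufa3, Cox7c, mt-Nd3 and mt-Nd4l lie above control in every treated mouse, Sdhd and Atp5o below it, Ndufv1 below it at 3 and 72 h, and mt-Nd4 overlaps control in part.

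The mtDNA genes are read as 2 long transcripts that are then cut into separate RNAs, so their levels also depend on processing and stability. At 3 h the genes with the shortest annotated span rose most, mt-Nd3 and mt-Nd4l of complex I and mt-Atp8 of complex V. mt-Nd3 (chrM:9459-9806) had CPM of 67.8, 64.9, 62.5 and 71.3 in control, 215, 206, 209 and 199 at 3 h, 122, 123, 125 and 119.5 at 24 h and 157, 160.5, 135 and 139 at 72 h, so that all treated mice stood well above the control mice. Its log2 fold change was 1.66 (SE 0.0547, adjusted p = 4.52e-17) at 3 h, 0.90 (SE 0.0526, adjusted p = 1.43e-11) at 24 h and 1.17 (SE 0.0534, adjusted p = 1.44e-13) at 72 h. mt-Nd4l (chrM:9877-10173) had CPM of 53.1, 51.8, 52.5 and 61.8 in control, 172, 160.0, 163 and 165 at 3 h, 98.5, 92.4, 94.4 and 97.3 at 24 h and 135, 142, 125 and 117 at 72 h, also without overlap, and log2 fold changes of 1.64, 0.85 and 1.29. mt-Nd6, the sole protein gene of the light strand, rose by 1.25, 0.62 and 1.18 from a low level of 8.48 ± 2.08 CPM. mt-Nd5 rose by 0.52, 0.22 and 0.42, mt-Nd1 by 0.24, 0.20 and 0.19, and mt-Nd2 by 0.23, 0.19 and 0.23, all called. mt-Nd4 was called at 3 h (0.10) and 72 h (0.10), and at 3 h its sign turned with scaling to library size, to -0.05. Its 3 h call was also lost without control mouse 2 or without mouse 1, 2 or 3 of the 3 h group (0.080 to 0.094), and its 72 h call without control mouse 2 or without mouse 1 or 2 of the 72 h group (0.079 to 0.087).

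The abundant mtDNA genes of the other complexes moved little. mt-Co1, mt-Co2 and mt-Co3, the catalytic core of complex IV, were at 0.16, 0.07 and -0.02 at 3 h, of which mt-Co1 and mt-Co2 passed, and mt-Co2 turned to -0.08 with scaling to library size. Its call at 3 h was lost without control mouse 1 or 2 or without mouse 1, 2 or 3 of the 3 h group (0.054 to 0.064), and that at 72 h (0.08) without control mouse 2 or without mouse 2 of the 72 h group (0.070 and 0.064). mt-Cytb, the cytochrome b of complex III, was called at 24 h (0.14) and 72 h (0.13) but not at 3 h (0.08), where it passed without control mouse 1, mouse 4 of the 3 h group or mouse 4 of the 24 h group (0.076 to 0.094). mt-Atp6 was called at no time (-0.03, 0.01 and 0.05). Its neighbor mt-Atp8 had CPM of 23.6, 22.7, 25.2 and 24.4 in control, 59.9, 56.2, 58.0 and 59.6 at 3 h, 31.4, 31.3, 32.3 and 32.9 at 24 h and 36.5, 41.1, 36.5 and 34.4 at 72 h, without overlap, for log2 fold changes of 1.29, 0.42 and 0.63.

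In 2 instances a pair of these genes shares a mature RNA, and within each pair the counts moved apart. mt-Nd4l and mt-Nd4 overlap by 7 bases and are translated from the same RNA, as are mt-Atp8 and mt-Atp6, which overlap by 43 bases. Per 100 UMIs of mt-Nd4 there were 5.03 ± 0.489 UMIs of mt-Nd4l in control, then 14.1 ± 0.604, 8.41 ± 0.242 and 11.1 ± 0.587 at 3, 24 and 72 h (SD, n = 4 mice each). No group's range overlapped another's. Per 100 UMIs of mt-Atp6 there were 1.04 ± 0.0353 UMIs of mt-Atp8 in control, then 2.59 ± 0.122, 1.38 ± 0.0508 and 1.56 ± 0.0979 at 3, 24 and 72 h, again without overlap between groups. These ratios do not depend on the scaling between libraries. mt-Nd5 and mt-Nd6 overlap by 14 bases on opposite strands.

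Transcript length moved with these changes. Of the 12 tested nuclear members with transcripts of at most 500 bases, 11 were called higher and 0 lower at 3 h, with a median log2 fold change of 0.66. The 43 members between 500 and 1000 bases had 21 higher and 11 lower, the 25 between 1000 and 2000 bases 3 higher and 16 lower, and the 12 longer ones 2 and 3. Of all genes in the same ranges, 29.4%, 17.4% and 18.1% were called higher at 3 h, and 22.3%, 24.6% and 16.9% lower. Across the 92 members, Spearman's rho between length and log2 fold change was -0.59 at 3 h, -0.50 at 24 h and -0.49 at 72 h. Without those of at most 500 bases it was -0.46, -0.35 and -0.29 over 80 members. These are descriptions over genes that share the same libraries. Over 12011 genes of all kinds rho was -0.0253 at 3 h, but the 159 of at most 500 bases were called higher in 64.8% of cases, with a median of 0.64 at 3 h, 0.35 at 24 h and 0.38 at 72 h.

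With the loess trend of all genes on length removed, the median of the nuclear members was -0.18 at 3 h, -0.08 at 24 h and -0.13 at 72 h, and that of the mtDNA members 0.14, 0.13 and 0.17. The median of all genes was then -0.09, -0.03 and -0.03, so that 0 was not the middle of all genes. The largest rises then shrank but kept their sign, with Atp5k at 0.98, Ndufa3 at 0.86, Cox7c at 0.70, mt-Nd3 at 1.07, mt-Nd4l at 0.96 and mt-Atp8 at 0.39 at 3 h. For mtDNA genes the length used is that of the annotated gene. The RNAs that mt-Nd4l and mt-Atp8 share with mt-Nd4 and mt-Atp6 are longer, so the trend removed from them is not that of their RNAs. Among the falls at 3 h, Sdhd went from -0.52 to -0.57, Atp5o from -0.37 to -0.52 and Ndufv1 from -0.32 to -0.36. The median of all genes moved down as well, from -0.03 to -0.09. None of the 30 nuclear members called lower at 3 h turned. Removing the trend lowered the medians of all genes and of the nuclear genes of each complex, so a fall could hardly turn. This count therefore says nothing on how firm the falls are. Of the 37 nuclear members called higher at 3 h, 9 turned below 0. They were Uqcrh (-0.29), Ndufa6 (-0.23), Ndufa11 (-0.20), Ndufa4 (-0.14), Cox8a (-0.13), Cox6b1 (-0.10), Ndufs5 (-0.091), Uqcrq (-0.028) and Atp5j (-0.016), and of the 10 mtDNA members called higher mt-Co2 turned (-0.18). Of these, Uqcrq and Atp5j stayed above the median of all genes. At 24 and 72 h Cox6b1 and Ndufa6 turned. By complex, the median at 3 h went from 0.25 to -0.087 for the nuclear subunits of complex III, from 0.30 to -0.10 for those of complex IV and from 0.092 to -0.14 for the accessory subunits of complex I. As shares of all UMIs, the 14 nuclear members of at most 500 bases took 0.459 ± 0.00743% in control and 0.613 ± 0.0169% at 3 h, and the 37 over 1000 bases 0.803 ± 0.0125% and 0.678 ± 0.0154%.

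**Figure D3:**
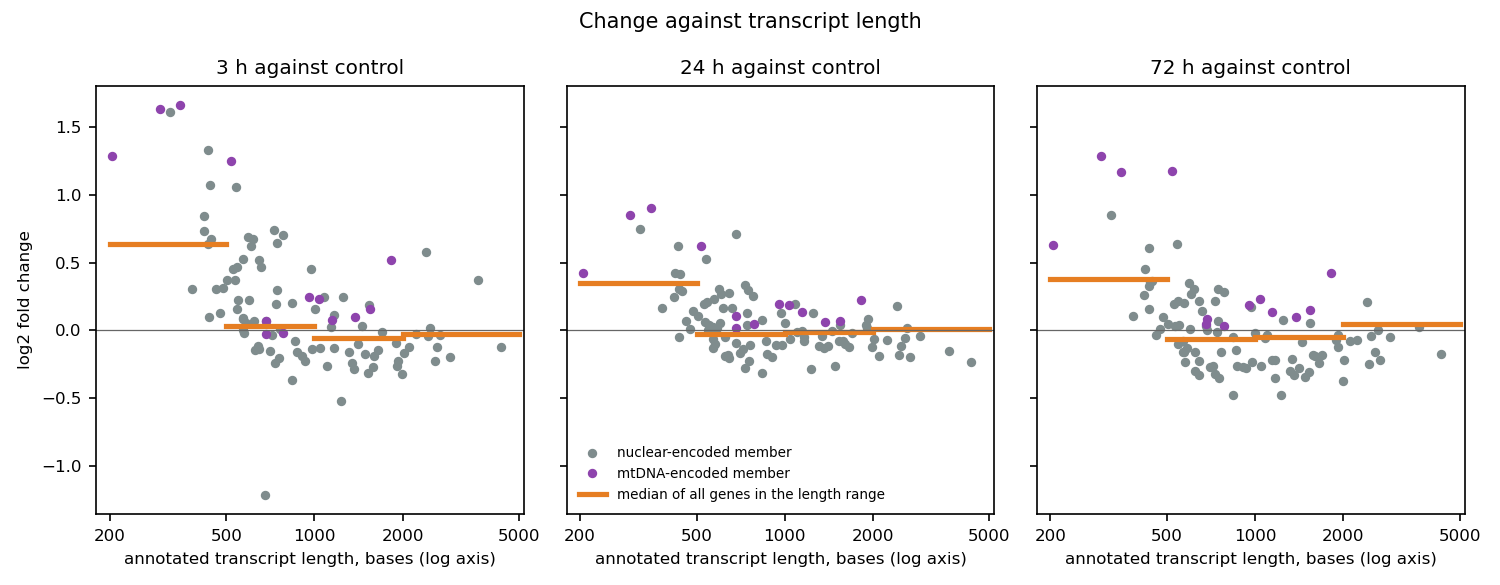
Log2 fold change against control (vertical axis) by annotated transcript length in bases (horizontal log axis) for nuclear and mtDNA members at 3, 24 and 72 h, with the median of all genes of each length range in orange. For mtDNA members this is the length of the gene and not of a shared RNA. Members of at most 500 bases lie mostly above 0, as does the median of all genes of that length (0.64 at 3 h), and most members between 1000 and 2000 bases lie below 0.

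From 3 h to 24 h the nuclear members moved back, with 14 higher and 41 lower at 24 h (12.3% and 16.3% of all genes), and 6 mtDNA members were lower and 0 higher. With library size alone the counts were 34 higher and 22 lower for nuclear and 5 and 5 for mtDNA members, where the median of all genes moved by 0.134. Atp5k was lower at 24 h than at 3 h by 0.86 (SE 0.0443, adjusted p = 3.6e-13), mt-Atp8 by 0.87, mt-Nd4l by 0.79 and Ndufa3 by 0.71. Among those higher at 24 h were Atp5b (0.28), Cox7a2l (0.25), Ndufv1 (0.24), Sdhd (0.24) and Cox6a2, which went from 2.23 ± 1.19 to 8.67 ± 4.29 CPM. From 24 h to 72 h, 3 nuclear members were called higher and 24 lower (3.7% and 5.38% of all genes), and 5 mtDNA members higher and 0 lower. The 5 were mt-Nd6 (0.56), mt-Nd4l (0.44), mt-Nd3 (0.27), mt-Atp8 (0.21) and mt-Nd5 (0.20). The 3 nuclear genes were Cox7c (0.11), Cox6b2 (0.21) and Ndufaf4 (0.17). The lower ones included Sdhc (-0.25), Ndufv1 (-0.23), Sdhb (-0.21), Sdhd (-0.20) and Uqcrfs1 (-0.20).

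As unscaled shares of all UMIs of a mouse, the 96 nuclear members took 2.96 ± 0.0446% in control, then 3.04 ± 0.0731%, 2.99 ± 0.0633% and 2.87 ± 0.0238% at 3, 24 and 72 h (SD, n = 4), and the ranges of the mice at 3 h and in control overlapped, whereas all mice at 72 h (2.84% to 2.89%) lay below all control mice (2.92% to 3.0%). This holds for the whole compartment, and the nuclear shares within cell classes at 72 h, given below, were not lower in most classes. The 13 mtDNA members took 1.6 ± 0.0386%, 1.56 ± 0.0512%, 1.69 ± 0.0335% and 1.72 ± 0.0421%, with the mice at 72 h (1.68% to 1.78%) above those in control (1.56% to 1.65%). By complex, the nuclear share of complex IV was 0.807% in control and 0.874% at 3 h, and that of complex III 0.296% and 0.322%. The nuclear share of complex I was 0.888% in control, 0.89% at 3 h and 0.837% at 72 h, and that of complex V 0.896%, 0.891% and 0.857%. Of the mtDNA shares, that of complex I was 0.286% in control and 0.32% at 3 h, and that of complex IV 0.833% and 0.789%. The cell filter removes cells with over 5% mtDNA UMIs, and without it the mtDNA shares were 1.87%, 1.75%, 1.89% and 2.0% in control and at 3, 24 and 72 h. Control mice then ranged from 1.74% to 2.10% and those at 72 h from 1.94% to 2.10%, so that these groups overlapped.

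The cell classes of the compartment differed in the balance of both genomes already in control. Classes were built on control cells by clustering without the members, and cells of the treated libraries received the label of their nearest control cells. The cluster led by Ly6a, with Hlf among its leading genes, was called HSC-like, and clusters with Dntt and Flt3 LMPP-like (lymphoid-primed). Clusters with Mpo, Elane and S100a8 were called myeloid progenitor-like. The cluster with Car1 and globin genes was called erythroid progenitor-like, and that with Pf4 and Itga2b MK (megakaryocyte) progenitor-like. Monocyte-like cells, basophil, mast cell and eosinophil progenitor-like cells and unnamed clusters were not fitted. They made up 10.4%, 2.31% and 24.5% of a mouse's kept cells in control and 9.19%, 2.18% and 30.7% at 3 h, as means. An unnamed cluster led by the plasma cell marker Jchain also had Ly6a, Hlf and Mecom among its 10 leading genes. It held 3.23% of all control cells and 7.89% at 3 h. Another, led by F13a1 and Ms4a6c with Irf8 and Csf1r, held 8.0% and 6.74%. The HSC-like and myeloid progenitor-like classes therefore need not hold all cells of their kind. In control the nuclear members took 2.19 ± 0.0601% of UMIs in HSC-like, 2.51 ± 0.055% in LMPP-like, and 2.87 ± 0.079%, 3.11 ± 0.0376% and 3.61 ± 0.106% in MK, myeloid and erythroid progenitor-like cells. The mtDNA members went the opposite way, from 2.07 ± 0.0876% in HSC-like and 1.87 ± 0.128% in LMPP-like cells over 1.53 ± 0.0529% in MK and 1.47 ± 0.00357% in myeloid to 1.41 ± 0.08% in erythroid progenitor-like cells. These are means over 3 control mice, or 4 for LMPP-like cells, and control mouse 4 is left out of the other classes, where it had fewer than 10 cells. Neighbors in these orders whose ranges overlapped were MK, myeloid and erythroid progenitor-like cells for mtDNA, and HSC-like and LMPP-like cells for mtDNA. At 3 h the order of the nuclear shares was the same, with 2.38%, 2.71%, 3.12%, 3.46% and 3.75%. In each class but the erythroid progenitor-like cells all mice at 3 h lay above the control mice, in myeloid progenitor-like cells at 3.39% to 3.52% against 3.07% to 3.14%. At 72 h the nuclear shares were 2.26%, 2.55%, 2.94%, 3.21% and 3.59% in the same order. These means were above those of control in each class but the erythroid progenitor-like cells. All myeloid progenitor-like values at 72 h (3.16% to 3.28%) lay above the control mice, and in the other classes the ranges overlapped.

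**Figure D4:**
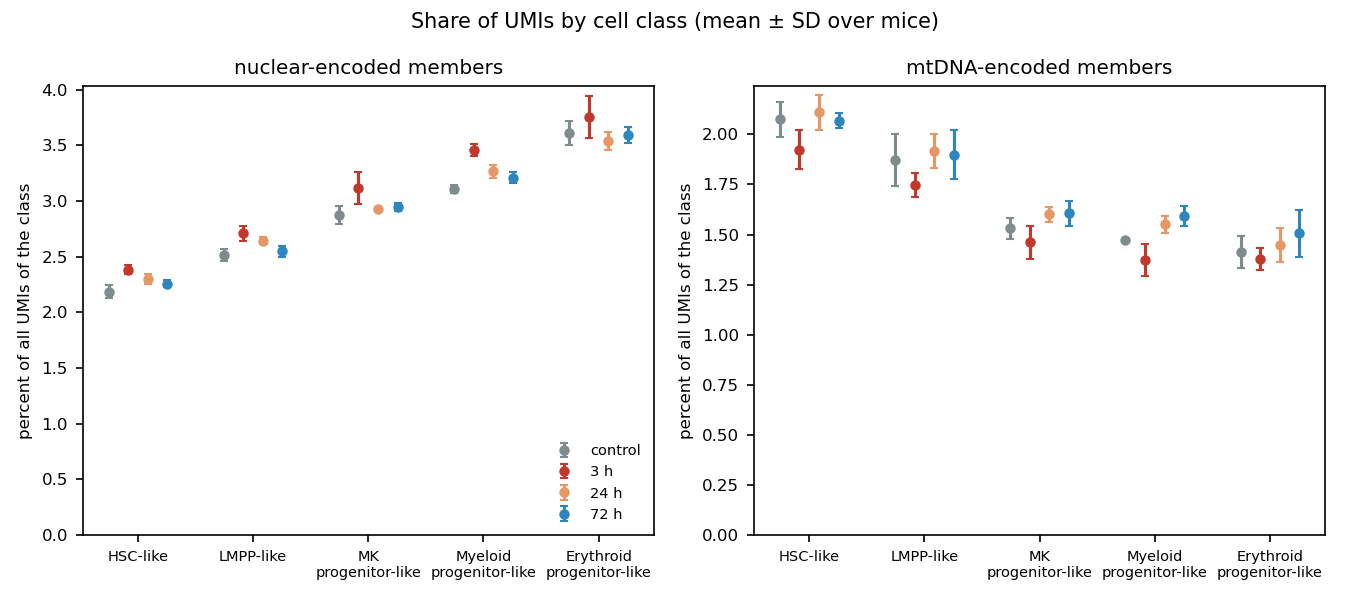
Percent of the UMIs of a cell class in a mouse (vertical axis) from nuclear (one panel) and mtDNA members (the other), for 5 cell classes at each time point, as mean and SD over the mice with at least 10 cells. The nuclear share is lowest in HSC-like cells (2.19% in control) and highest in erythroid progenitor-like cells (3.61%), and the mtDNA share is highest in HSC-like cells (2.07%).

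Within classes, rises outnumbered falls at 3 h under TMM scaling. The trend on transcript length, described above for the whole compartment, was not examined within the classes. In HSC-like cells 38 of 91 nuclear members were called higher and 1 lower (11.1% and 4.86% of the 9039 genes tested), and 7 mtDNA members were higher and 0 lower. In myeloid progenitor-like cells 39 were higher and 8 lower of 89 (11.6% and 5.4% of 8945 genes), and 7 mtDNA members were higher and 1 lower. LMPP-like cells had 32 higher and 1 lower of 90 (8.97% and 3.75% of 8890), erythroid progenitor-like cells 32 and 4 of 89 (8.97% and 3.48% of 8242), and MK progenitor-like cells 28 and 4 of 89 (7.88% and 2.39% of 8701). With scaling to library size alone, the splits at 3 h became 28 higher and 18 lower in HSC-like, 30 and 29 in myeloid, 25 and 19 in LMPP-like, 23 and 32 in erythroid and 25 and 16 in MK progenitor-like cells. Control mouse 4 entered only the LMPP-like fit.

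The leading genes rose in each of the 5 classes fitted. mt-Nd3 went from 61.2 ± 7.06 CPM in HSC-like cells of control mice (SD, n = 3) to 226 ± 17.8 at 3 h (n = 4), a log2 fold change of 1.90 (adjusted p = 1.83e-16), and stood at 1.76 in LMPP-like, 1.60 in myeloid, 1.62 in erythroid and 1.69 in MK progenitor-like cells. Atp5k went from 173 ± 4.08 to 609 ± 22.0 CPM in myeloid progenitor-like cells, by 1.81 (adjusted p = 1.55e-25), and by 1.68 to 1.98 in the other classes. Ndufa3 rose by 1.34 to 1.49 across the 5. Of the falls, that of Cox7a2l passed in 4 classes at 3 h, with -0.38 in HSC-like, -0.43 in LMPP-like, -0.43 in myeloid and -0.37 in MK progenitor-like cells, whereas erythroid progenitor-like cells stood at -0.07. Sdhd fell in myeloid (-0.31) and erythroid progenitor-like cells (-0.33) and was at -0.28 (adjusted p = 0.196) in HSC-like cells without passing.

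The falls of the catalytic subunits had different sizes in the separate fits by class. Only HSC-like and myeloid progenitor-like cells were compared directly, as given below, and 1 of 102 members passed there at 3 h. Ndufv1, at -0.32 in the whole compartment at 3 h, passed in none of the 5 classes, with values from -0.29 in erythroid progenitor-like to 0.01 in HSC-like cells. The nuclear core of complex I, complex II and the ATP synthase head (16 genes) had a median of -0.00329 in HSC-like cells at 3 h with 2 called higher and 0 lower, and of -0.14 in myeloid progenitor-like cells with 1 higher and 3 lower. The median was -0.18 with 1 higher and 4 lower in erythroid, -0.11 with 1 and 2 in MK progenitor-like, and -0.092 with 1 and 0 in LMPP-like cells. Beside this, the makeup of the compartment shifted: HSC-like cells, with the lowest nuclear share, were 10.1 ± 1.88% of a mouse's kept cells in control and 20.8 ± 2.6% at 3 h (SD, n = 4), and myeloid progenitor-like cells 18.3 ± 2.03% and 8.45 ± 2.06%. At 72 h HSC-like cells were 19.2 ± 2.26% and myeloid progenitor-like cells 8.44 ± 1.7%. The HSC-like share also depends on the HSCs added at the sort. The authors state that this enrichment and the fewer cells captured at 3 h can explain the higher HSC abundance they found then. The part of these shifts in the compartment's values was not tested.

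At later times, 16 nuclear members were called higher and 2 lower in HSC-like cells at 24 h (2.61% and 0.708% of genes) and 20 and 1 at 72 h (2.62% and 0.985%), with 5 and 6 mtDNA members higher and 0 lower. The 2 lower genes at 24 h were Ndufb11 (-0.28) and Cox4i1 (-0.23), and Cox4i1 was the one at 72 h (-0.24). In myeloid progenitor-like cells 32 were higher and 1 lower at 24 h (7.23% and 3.13%) and 26 and 6 at 72 h (6.73% and 3.57%), with 10 and 12 mtDNA members higher and 0 lower. With library size alone the lower counts in myeloid progenitor-like cells were 8 at 24 h and 22 at 72 h. Erythroid progenitor-like cells had 13 higher and 12 lower of 89 at 24 h (5.19% and 3.25% of genes). At 72 h they had 19 and 9 (3.2% and 1.86%). LMPP-like cells had 19 and 0 of 90 at 24 h (3.14% and 1.24%) and 19 and 3 at 72 h (3.33% and 1.56%). MK progenitor-like cells had 17 and 1 of 89 (2.83% and 0.988%) and 18 and 2 (2.69% and 1.41%). Under TMM scaling mt-Nd4l led the rises in myeloid progenitor-like cells, at 0.98 and 1.44 at 24 and 72 h. Sdhd led the falls there, at -0.16 and -0.35. In HSC-like cells the largest called rises were those of mt-Nd3 at 24 h (1.05) and mt-Nd4l at 72 h (1.41). The 2 clusters behind this class changed weight, the cluster led by S100a8 and S100a9 holding 44.5% of its cells in control and 24.4% at 3 h, and cells kept their class under another way of transferring labels in 68.5%, 87.6% and 75.7% of cases at 3, 24 and 72 h.

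The responses of HSC-like and myeloid progenitor-like cells were compared directly, by testing the difference between both classes within each mouse with limma over 15 mice. Of 102 members tested, 1 passed at 3 h, where 0.95% of 8210 genes did, and 0 passed at 24 h (0.0609% of genes) and at 72 h (0.0%). At an unadjusted p under 0.05 the members numbered 10, 1 and 0 at 3, 24 and 72 h, or 9.8%, 0.98% and 0% of them against 13%, 4.74% and 5.01% of all genes. The gene that passed was Sdhb, whose change was 0.55 higher in HSC-like cells (SE 0.111, limma's adjusted p = 0.0305). Sdhb went from 132 ± 9.74 to 179.6 ± 14.5 CPM in HSC-like cells, a log2 fold change of 0.42, and from 168 ± 5.27 to 154 ± 15.2 in myeloid progenitor-like cells, at -0.12. With library size alone, or with labels transferred after centering each library, no member passed at 3 h, nor without control mouse 1, 2 or 3 or mouse 4 of the 3 h group.

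The related mitochondrial gene lists gave the setting. Of the 76 mitochondrial ribosomal protein genes tested, which translate the mtDNA messages, 15 were called higher and 16 lower at 3 h, 4 and 30 at 24 h, and 3 and 55 at 72 h, with medians of -0.04, -0.10 and -0.21. The 16 genes of electron carriers, ubiquinone synthesis and Cyc1 had 2 higher and 9 lower at 3 h, 0 and 6 at 24 h, and 0 and 7 at 72 h. Cytochrome c itself, Cycs, rose at 3 h by 0.33, whereas Coq10a was lower then, at -0.40. Etfb of the fatty acid branch was lower at 24 h (-0.33) and 72 h (-0.54). Assembly factors outside the symbol rule had 10 higher and 4 lower of 37 at 3 h, 5 and 7 at 24 h, and 8 and 12 at 72 h. Pet100 and Cox16, both needed for complex IV, led these rises. Pet100 stood at 1.48 at 3 h, and Cox16 at 0.80 at 24 h and 0.85 at 72 h. Acad9 led the falls at 3 h (-0.40), and Coa4 led them at 24 h (-0.35) and 72 h (-0.36).

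Among 17 tested regulators of mitochondrial genes, 5 were higher and 1 lower at 3 h, 2 and 2 at 24 h, and 3 and 0 at 72 h. Slirp, which stabilizes mtDNA messages, went from 82.9 ± 7.31 to 198 ± 8.01 CPM at 3 h, a rise of 1.22, and stood at 0.51 and 0.46 later. Its partner Lrpprc did not pass at 3 h (-0.12), and Tfam, which packs mtDNA, rose by 0.14. Nrf1 and Gabpa, whose motifs were searched in the promoters, were not called at 3 h (-0.08 and -0.12), and Yy1 was lower by 0.12. The regulator with the largest called fall at 24 h was Polrmt, at -0.38.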

How the data were processed

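RNA was counted in single LK cells and added HSCs of 16 mice, in 4 droplet libraries with a hashtag for each mouse. The authors aligned reads to mm10 with Cell Ranger 3.1.0 and deposited UMI counts per gene and barcode, without normalization, together with hashtag counts, a margin score and hashtag calls from Seurat. The gene annotation behind the counts is not given in the sources used here. The members and gene lists were chosen with earlier results of these data known.

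Barcodes with a single hashtag call, at least 700 genes and at most 5% mtDNA UMIs were kept, and hashtag doublets and negatives were removed. Doublets within a mouse carry 1 hashtag and remain. Counts were summed per mouse (1102706 to 26446327 UMIs) and tested over all genes with edgeR 4.0.16 (filterByExpr, TMM, quasi-likelihood F test, Benjamini-Hochberg, R 4.3.3) in 1 fit over 16 mice. A call is an adjusted p under 0.05. CPM values use TMM-scaled library sizes. These depths leave counting error small for all but the rarest members, and control mouse 4, with 58 cells, is the shallowest.

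Control cells were clustered with Scanpy 1.11.5 and leidenalg 0.10.2 under Python 3.11.15 (500 variable genes by Pearson residuals without the members, ribosomal protein genes and interferon-stimulated genes, 10 components, 15 neighbors, resolution 0.8). Labels went to treated cells by nearest neighbors, and class sums needed 10 cells of a mouse. The difference between classes used limma 3.58.1. DESeq2 1.42.0 was run as an alternative. The genes named are, per complex and time, the nuclear member with the largest called rise and fall that has all 4 mice on the same side of the control mean, all mtDNA genes, subunit families, Atp5e and Cox7c, per class the largest called rise and fall, and per further list and time the same. Remaining members are named to account for them, except 1 that is not reported here, and Tfam, Lrpprc, Nrf1, Gabpa, Ndufa3 and Atp5k by class were chosen after their values were seen. Transcript lengths and positions came from GENCODE vM21, as the median length over a gene's protein-coding transcripts where it has any, and promoters from RefSeq on GRCm38.p6. The edgeR fits of the whole compartment and of myeloid progenitor-like cells, and the limma difference between classes, were tried on simulated counts at 3 h against control. The other steps were not simulated. The alternatives were scaling, filters, tests, depth per cell, length, labels and each mouse left out.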

Additional observations from a re-analysis of the deposited data

Results flagged for a closer look

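Of 220 groups of 4 mice examined, 13 held a mouse far from the other 3 by Dixon's test at 95%, where chance gives about 1 group in 20. Control mouse 4, with 58 cells, was the high one in 3 of them. It had 486 CPM of Atp5o against 418 to 426 in the other control mice, 61.8 CPM of mt-Nd4l against 51.8 to 53.1, and 234 CPM of mt-Nd5 against 224 to 225.

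Among the treated mice, mouse 4 at 24 h had 1007 CPM of Cox4i1 against 942 to 948 and a complex I core share of 0.115% of UMIs against 0.113% in each of the others. Mouse 1 at 24 h had 499 CPM of mt-Nd2 against 461 to 466. At 3 h, mouse 1 had 4.16 CPM of Cox4i2 against 6.76 to 7.13, and mouse 4 had 2375 CPM of mt-Cytb against 2518 to 2545. At 72 h, mouse 3 had 403 CPM of Cox7b against 394 to 396 and 265 CPM of Ndufa3 against 272 to 274. Mouse 2 at 72 h had 236 CPM of Ndufb10 against 240.9 to 241.3, 3594 CPM of mt-Co1 against 3502 to 3507, and a complex II share of 0.0657% against 0.0636% to 0.0639%.

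The change of Sdhb at 3 h differed between HSC-like and myeloid progenitor-like cells by 0.55 on the log2 scale (limma's adjusted p = 0.0305 over 15 mice), and the difference did not pass under library size alone or with centered labels.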

How the results depend on the processing

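No paired analysis was possible because the hashtag numbers name different mice in each library. Leaving out the barcodes that libraries share was chosen after seeing the data and moved no count by more than 1.5 times, nor did DESeq2, DESeq2 size factors, the likelihood ratio test, a mitochondrial limit of 10%, TMM without the mtDNA genes, or the largest cluster of a class alone. With library size alone, mtDNA members were 5 higher and 3 lower at 3 h, and those higher at 24 h against 3 h were 5, beside 34 nuclear members higher and 22 lower. Nuclear members lower within classes then numbered 18 at 3 h and 5 at 72 h in HSC-like, 19 in LMPP-like, 29, 8 and 22 at 3, 24 and 72 h in myeloid, 32 in erythroid and 16 in MK progenitor-like cells, and 0 members differed between HSC-like and myeloid progenitor-like cells at 3 h. With cells thinned to 5000 UMIs, 17 nuclear members were lower at 3 h and 11 at 24 h, 8 were higher at 24 h against 3 h, and at 72 h against 24 h 0 were higher and 13 lower, with 3 mtDNA members higher. With no filter on low counts, 2 mtDNA members were higher at 24 h against 3 h, 1 nuclear member was higher at 72 h against 24 h, and 2 were lower in HSC-like cells at 72 h, 3 in LMPP-like cells at 3 h and 13, 4 and 17 in myeloid progenitor-like cells at 3, 24 and 72 h. With labels transferred after centering each library, 1 and 2 were lower in HSC-like cells at 24 and 72 h, 7 in LMPP-like and 9 in erythroid progenitor-like cells at 3 h, 3 and 14 in myeloid progenitor-like cells at 24 and 72 h, and 0 members differed between classes at 3 h. Without the length trend, the median of the nuclear members was -0.18, -0.081 and -0.13 at 3, 24 and 72 h and 0.030 at 24 h against 3 h, and that of the mtDNA members 0.14 at 3 h, 0.13 at 24 h, -0.014 at 24 h against 3 h and 0.090 at 72 h against 24 h. The median of all genes was then -0.090, -0.029 and -0.026 at 3, 24 and 72 h. Signs turned without the trend for Cox6b1 (-0.10 at 3 h, -0.00189 at 24 h and -0.073 at 72 h), Cox8a (-0.13), Ndufa4 (-0.14) and mt-Co2 (-0.18) at 3 h, among 9 of 37 nuclear members called higher at 3 h and 2 each at 24 and 72 h that turned, and with library size alone for mt-Co2 (-0.079) and mt-Nd4 (-0.052) at 3 h. Without a mitochondrial limit, 7, 6 and 9 mtDNA members were called higher at 3, 24 and 72 h, the nuclear share at 72 h was 2.84% and the mtDNA shares were 1.87%, 1.75%, 1.89% and 2.0% from control to 72 h. With each mouse left out, nuclear members lower at 24 h were 17 (without mouse 2 at 24 h) to 28, mtDNA members higher at 24 h against 3 h 0 to 1 (without mouse 2 at 3 h), and nuclear members at 72 h against 24 h 0 to 3 higher (fewer without any mouse of the 24 h group or mouse 2, 3 or 4 at 72 h) and 14 (without mouse 4 at 24 h or mouse 1 at 72 h) to 26 lower. Those lower in classes were 0 (without control mouse 2) to 2 at 24 h (with 1 without control mouse 1 or 3 or mouse 1, 2 or 3 at 24 h) and 0 (control mouse 2) to 3 (control mouse 3) at 72 h (with 2 without mouse 4 at 3 h, mouse 2 or 3 at 24 h or mouse 4 at 72 h) in HSC-like, 1 to 2 (control mouse 1 or mouse 3 at 3 h) in LMPP-like, 0 (control mouse 1 or mouse 1 or 2 at 24 h) to 3 at 24 h (with 2 or 3 without control mouse 2 or any mouse at 3 or 72 h) and 6 to 13 (mouse 4 at 72 h) at 72 h (with 10 without mouse 3 or 4 at 3 h) in myeloid, 2 (control mouse 1 or 3 or mouse 2 at 3 h) to 8 (control mouse 2) in erythroid and 1 (control mouse 1 or 2) to 4 (with 2 without mouse 1, 2 or 4 at 3 h) in MK progenitor-like cells. Members that differed between classes at 3 h were 0 (control mouse 1, 2 or 3 or mouse 4 at 3 h) to 1. The cause of these shifts was not tested, and the classes, built here, rest on 135 myeloid progenitor-like cells at 3 h.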

Other observations

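Genes that feed the respiratory chain were mostly lower where they passed. Of 13 enzymes of the TCA cycle, which supplies NADH and succinate, 1 was called higher and 7 lower at 3 h. The counts were 0 and 3 at 24 h, and 1 and 7 at 72 h. Citrate synthase, Cs, was at -0.32 at 3 h, Dlst at -0.19 at 24 h and Mdh2 at -0.28 at 72 h. Suclg2, in contrast, rose by 0.28 at 3 h and 0.19 at 72 h. Of 8 genes of pyruvate entry, 1 was higher and 3 lower at 3 h, 0 and 4 at 24 h, and 1 and 4 at 72 h. Pdha1, of the pyruvate dehydrogenase that makes acetyl-CoA, fell by 0.45 at 3 h. The pyruvate carrier gene Mpc1 was called lower at 24 h (-0.28) and 72 h (-0.44). The kinase genes Pdk3 and Pdk1, whose products switch the dehydrogenase off, rose by 0.29 at 3 h and 0.27 at 72 h. The background shares of called genes are those given for the same comparisons.

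Of 16 glycolysis genes, 5 were higher and 7 lower at 3 h, 4 and 3 at 24 h, and 7 and 7 at 72 h. Pgk1 led them at 1.86 at 3 h and 1.05 at 24 h, Aldoc at 0.84 at 72 h, and Pgam1 fell by 0.44, 0.25 and 0.46 at 3, 24 and 72 h. Of 8 genes for the removal of superoxide and peroxide, 1 was higher and 5 lower at 3 h, 1 and 3 at 24 h, and 1 and 4 at 72 h. Sod1, the cytosolic superoxide dismutase, rose by 0.46, 0.24 and 0.46, and the peroxiredoxin Prdx5 fell by 0.58, 0.46 and 0.62. The 7 genes for ADP/ATP and phosphate carriers, pores and uncoupling had 0 higher and 3 lower at 3 h, 0 and 0 at 24 h, and 0 and 4 at 72 h, with the phosphate carrier Slc25a3 at -0.26 at 3 h and Vdac3 at -0.23 at 72 h. The 99 cytosolic ribosomal protein genes tested had 57 higher and 25 lower at 3 h, 40 and 23 at 24 h, and 47 and 27 at 72 h, and AA467197, a relative of Ndufa4, was not called (-0.09, -0.74 and -0.51).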
